A study of Mus musculus with 24 samples.

Results

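DNA replication and mitosis genes are a module of 59 genes of the 24411 in each table, taken by name: the rows whose gene symbol was on the list, with a column for each library of 7 groups of 3. Of these, 56 averaged 10 or more normalized counts in every table. They were read by role, as 13 licensing and helicase genes, 10 genes of DNA synthesis and nucleotide supply, 10 G1/S cyclins, kinases and E2F factors, 23 G2 and mitosis genes, and 3 CDK inhibitors. Cells load the MCM helicase on origins in G1, copy DNA in S phase and part the chromosomes in mitosis. D cyclins with Cdk4 or Cdk6 free E2F factors from RB proteins, and inhibitors such as p21, from Cdkn1a, hold the cyclin-dependent kinases (CDKs) back. Many S phase genes are read by E2F factors, and many mitotic genes by the MuvB complexes with B-Myb and Foxm1.

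The study cultured astrocytes and microglia of mice with the SOD1G93A transgene, a model of amyotrophic lateral sclerosis bred to C57BL/6J, and of wild-type (WT) mice. Astrocytes were immunopanned from early postnatal forebrain by HepaCAM, after negative panning with CD45, BSL I and O4, and kept without serum in medium with HBEGF. Activated astrocytes received C1q (400 ng/mL) with TNFa (30 ng/mL) and Il1a (3 ng/mL), and quiescent astrocytes received PBS. Microglia were taken by Cd11b from early postnatal whole brain, kept without serum in medium with TGF-β2, IL-34, cholesterol and heparan sulfate, and given LPS at 50 ng/mL or PBS.

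Libraries held 2016139 to 11570122 reads on genes, and 4 of 21 stood apart from the other 2 of their group. For WT LPS microglia 1, chi-square per degree of freedom over all genes was 12.8 and 14.0 to the other 2 libraries and 1.625 between those 2. For SOD1G93A LPS microglia 3 it was 15.7 and 20.3 against 2.325. For WT quiescent astrocytes 3 it was 6.497 and 8.97 against 2.03, and for SOD1G93A quiescent astrocytes 1 it was 6.47 and 9.87 against 2.785. Counts of called members, and some single values that turned on these libraries, are given with and without them.

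In WT astrocytes 50 of 59 members passed the test (limma, adjusted p under 0.001 and more than 2-fold) on activation, 48 lower and 2 higher, where 5.54% of the 12336 genes tested were called lower and 6% higher. Without WT quiescent astrocytes 3 the count was 51. The median log2 fold change was -1.70 over members and 0.01 over all genes. In 53 members every activated library was lower than every quiescent one, as in 25.2% of genes. Fewer cells in cycle and less of these RNAs in each cell cannot be told apart in these tables.

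All 13 licensing and helicase members fell in activated WT astrocytes, with a median of -1.75. Mcm5, a subunit of the helicase ring, read 855, 1005 and 1236 normalized counts in quiescent libraries 1, 2 and 3 and 231, 292 and 256 in activated libraries 1, 2 and 3. The activated libraries were all lower, with a log2 fold change of -1.98, standard error (SE) 0.14 and adjusted p = 8.8e-07. Mcm4, of the same ring, read 773, 863 and 1229 against 256, 239.6 and 235, without overlap (-1.94, SE 0.15). Cdc6, which loads the ring, read 123, 167 and 186 against 45.3, 37.8 and 40.5, also apart (-1.90, SE 0.18). The other ring subunits lay at -1.75 (Mcm2), -1.74 (Mcm3) and -1.79 (Mcm6). The initiation factor Mcm10 fell by 1.88 on the log2 scale, from 205, 206 and 284 to 57.9, 63.5 and 63.8. Smallest in this role were the ring subunit Mcm7, at 927, 854 and 1159 against 332, 332 and 333 (-1.55), and the loading factor Cdt1, at 191, 224 and 324 against 86.8, 83.4 and 71.6 (-1.57). Cdt1 lost its call in limma without a trend. Cdc45 and the GINS subunits Gins1 and Gins2, which complete the active helicase, lay at -1.75, -1.60 and -1.66, and Gmnn, which binds and restrains Cdt1, at -1.66.

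Of the 10 synthesis members 8 were called lower in activated WT astrocytes, and the median of the role was -1.67. Uhrf1, which links replication to DNA methylation, read 911, 1014 and 1437 in quiescent and 299.9, 288 and 301 in activated libraries. These groups were apart, at -1.89 (SE 0.14, adjusted p = 1.8e-06). Rrm2, the regulated subunit of ribonucleotide reductase, read 1048, 1178 and 1291 against 292, 321 and 350.1, with all activated libraries lower (-1.86, SE 0.10). The primase Prim1 lay at -1.89, from 203, 209 and 140.3 to 39.5, 50.6 and 56.1, and the reductase subunit Rrm1 at -1.82. Also called were the polymerase subunit Pola1 (-1.74), the clamp Pcna (-1.56), the clamp loader subunit Rfc4 (-1.60) and the flap nuclease Fen1 (-1.30). The 2 members not called had small adjusted p but changes under 2-fold. Tyms, which makes dTMP, read 191, 198 and 184 against 121, 117 and 105.2 (-0.73, SE 0.11, adjusted p = 3.9e-04), with no overlap. Rfc3, of the clamp loader, read 235, 227 and 171 against 109.9, 128 and 108 (-0.86, adjusted p = 6.7e-04), and passed at -1.003 without WT quiescent astrocytes 3.

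Each of the 23 mitosis members fell in activated WT astrocytes, with a median of -1.79. The checkpoint kinase Bub1b read 440.3, 442 and 623 in quiescent and 107, 121 and 111 in activated libraries. No activated library reached a quiescent one, and the log2 fold change was -2.12 (SE 0.14, adjusted p = 6.5e-07). Mki67, which coats mitotic chromosomes, read 4547, 4897 and 5379 against 1050.0, 1243 and 1188, apart in the same way (-2.09, SE 0.10, adjusted p = 7.4e-08). The kinetochore gene Cenpf lay at -2.04 and the cytokinesis kinesin Kif20a at -2.03. Least moved were the survivin gene Birc5, at 387, 349 and 287 against 101, 126 and 127 (-1.52), and the midzone kinesin Kif23, at 338, 337 and 446 against 183, 173 and 195 (-1.01, SE 0.12). Kif23 kept its call in 13 of 17 alternative settings, and lost it without WT quiescent astrocytes 3 (-0.88).

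Cyclins and their partner kinase in this role lay at -1.93 (Ccna2), -1.71 (Ccnb1), -1.68 (Ccnb2) and -1.70 (Cdk1). The mitotic kinases Aurka, Aurkb, Plk1 and Bub1 lay at -1.65, -1.95, -1.998 and -1.67. Cdc20 and Ube2c, which drive destruction of cyclin B, lay at -1.67 and -1.58, and topoisomerase Top2a at -1.98. Among spindle genes the values were -1.56 (Cenpe), -1.998 (Kif11), -1.79 (Tpx2), -1.79 (Nusap1) and -1.84 (Prc1), and the transcription factor Foxm1 had -1.81.

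The G1/S members of WT astrocytes went separate ways: 3 were called lower, 1 was called higher, and the median was -0.67. E2f8, a repressor of E2F targets, read 284, 289 and 379 in quiescent and 61.7, 75.6 and 56.1 in activated libraries. All activated libraries were lower, and -2.28 (SE 0.16, adjusted p = 8.0e-07) was the largest change of any member there. The E cyclin Ccne2 read 312, 303 and 209 against 75.2, 88.4 and 69.8, and fell (-1.79). The activator E2f1 read 219, 216 and 234 against 75.2, 72.7 and 68.1, and fell (-1.62). Cdk6, a partner of the D cyclins, read 100.2, 115 and 87.5 against 291, 267 and 326. It was higher in every activated library and rose by 1.54 (SE 0.13, adjusted p = 4.3e-06). Ccne1, the other E cyclin, lay at -1.19 with adjusted p = 0.00203, and Cdk2, the partner of both, at -0.94 with adjusted p = 9.8e-05, so neither was called.

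D cyclin levels of astrocytes overlapped or were higher after activation. Ccnd1 read 7131, 7824 and 10167 in quiescent and 8662, 8318 and 9233 in activated WT libraries, which overlapped (0.08, SE 0.14, adjusted p = 0.699). Ccnd2 read 6949, 8032 and 9704 against 8169.8, 8228 and 9630.4, again with overlap (0.09, adjusted p = 0.662). Neither Ccnd1 nor Ccnd2 was called in any of 17 alternative settings, and without WT quiescent astrocytes 3 they lay at 0.22 and 0.21. Ccnd3 read 303, 293 and 412 against 501, 446 and 526, higher in all activated libraries but not called (0.56, SE 0.13, adjusted p = 0.00626). Their partner Cdk4 read 2285, 1888 and 1593 against 1456, 1457 and 1416, lower in all and not called (-0.40, adjusted p = 0.0218). Per length, as RPKM (reads scaled by depth and by kilobase of exon), Ccnd1 stood at 369 in quiescent WT astrocytes, Ccnd2 at 182, Cdk4 at 124, Ccnd3 at 7.95 and Cdk6 at 1.51.

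CDK inhibitors of WT astrocytes moved in both directions. Cdkn1a read 778, 882 and 1015 in quiescent and 2282, 2344 and 2476 in activated libraries, with the activated ones all higher. It rose by 1.42 (SE 0.10, adjusted p = 1.3e-06). Cdkn2c, which binds Cdk4 and Cdk6, read 429, 476 and 517 against 158, 189 and 169.9, with no overlap, and fell (-1.45, SE 0.11, adjusted p = 1.6e-06). Cdkn1b, the p27 gene, read 762, 787 and 630.1 against 875, 841 and 846, higher in all activated libraries and not called (0.24, adjusted p = 0.0773).

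**Figure D1:**
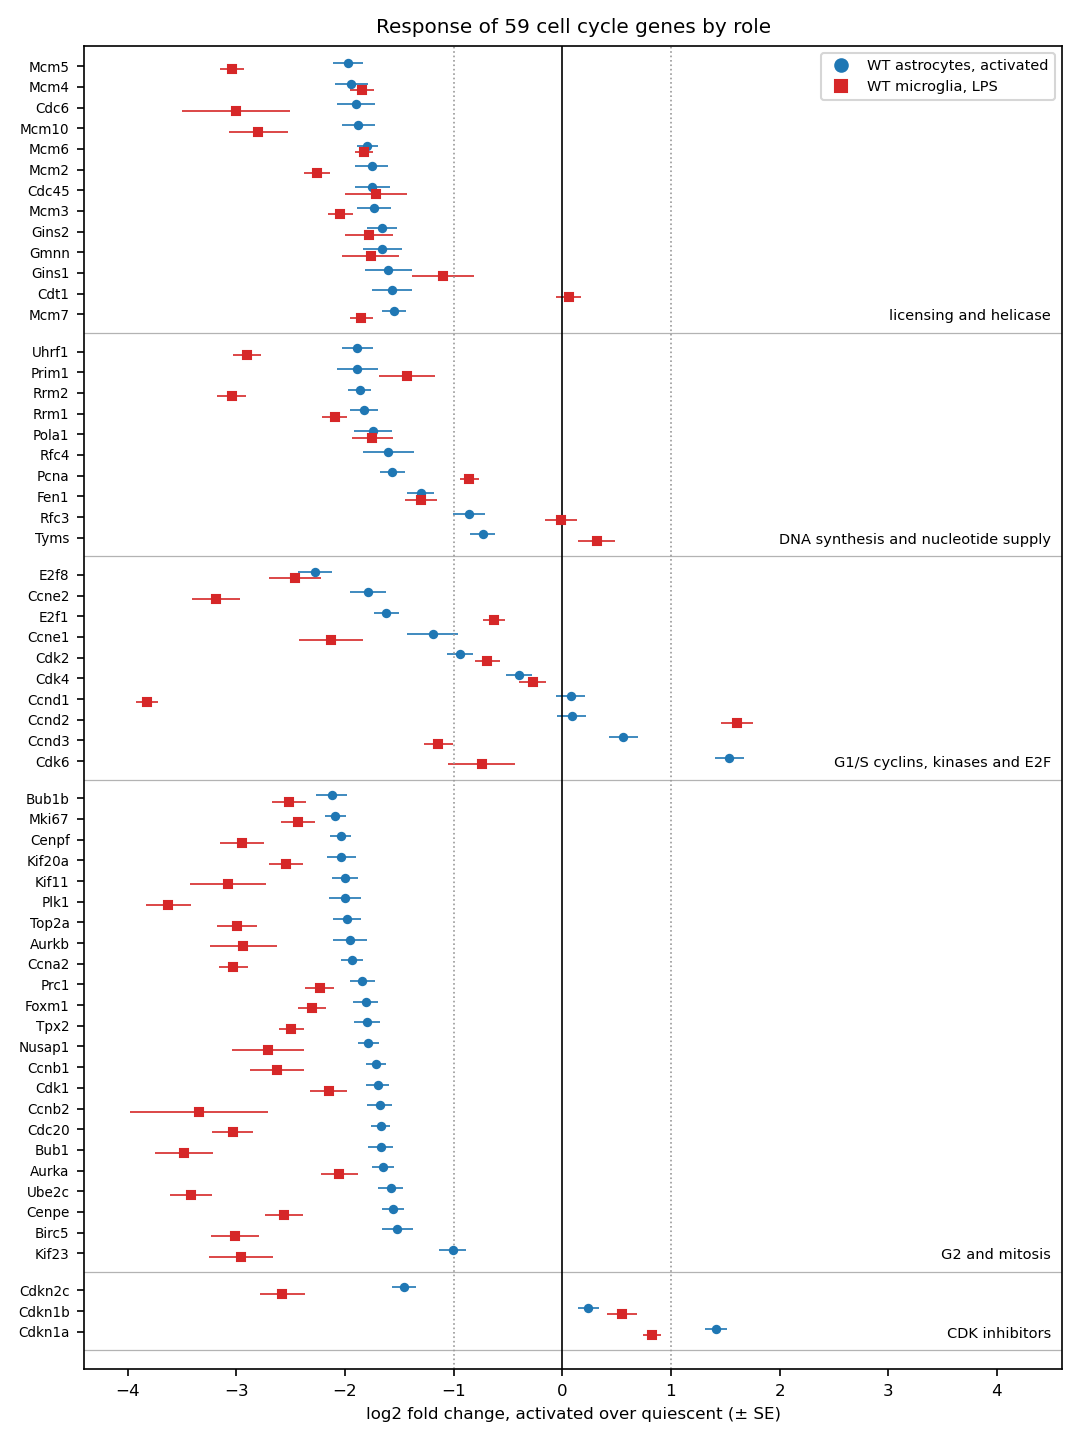
Log2 fold change of each member in WT astrocytes on activation and in WT microglia on LPS, by role. The median of the mitosis members was -1.79 in astrocytes and -2.94 in microglia.

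In WT microglia 46 of the 58 members tested were called on LPS (limma), 45 lower and 1 higher, where 10.6% of the 10866 genes tested were called lower and 10.2% higher. Without WT LPS microglia 1 the count was 47. The median over members was -2.28, against 0.00 over all genes. Non-overlapping groups with LPS lower were seen in 51 members, and in 32.3% of genes. The clamp loader subunit Rfc4 was not tested, since its mean of 8.25 normalized counts was under the minimum of 10, and Gins1, with 18.2, was nearest above it. Rfc4 read 11.2, 6.31 and 10.6 in quiescent and 7.34, 3.69 and 10.4 in LPS libraries, which overlapped.

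Licensing members of WT microglia were called lower in 11 of 13 cases, with a median of -1.84. Mcm5 read 518, 574 and 555 normalized counts in quiescent libraries and 63.9, 61.5 and 72.9 in LPS libraries. All LPS libraries were lower, at -3.04 (SE 0.11, adjusted p = 4.9e-09). Mcm10 read 91.3, 90.5 and 89.3 against 18.4, 12.3 and 7.81, without overlap (-2.80, SE 0.27). Cdc6 read 53.3, 48.4 and 62.8 against 2.94, 3.69 and 16.9, apart as well (-3.005, SE 0.50, adjusted p = 4.6e-04). Its LPS values stood on 3 to 13 reads with a mean of 7.85, so it passed the minimum of 10 through the quiescent libraries. Its call was kept in 10 of 16 alternative settings, and lost without WT LPS microglia 2 or any 1 of the 3 quiescent libraries. The ring subunits Mcm2, Mcm3, Mcm4, Mcm6 and Mcm7 lay at -2.26, -2.04, -1.84, -1.82 and -1.85. Called too were Cdc45 (-1.72), Gins2 (-1.78) and Gmnn (-1.76). Cdt1 read 417, 452 and 391 against 476, 468 and 375, which overlapped (0.06, SE 0.11, adjusted p = 0.68). Gins1 read 26.4, 21.04 and 28.0 against 11.02, 8.60 and 14.3, lower throughout but not called (-1.10, adjusted p = 0.00733).

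In the synthesis role 6 of 9 members tested were called lower in WT microglia, and the median was -1.43. Rrm2 read 294, 265 and 307 in quiescent and 31.6, 33.2 and 37.8 in LPS libraries. The LPS libraries were all lower (-3.04, SE 0.13, adjusted p = 1.7e-08). Uhrf1 read 344, 343 and 419 against 44.1, 52.9 and 48.2, apart as well (-2.90, SE 0.13). Rrm1 lay at -2.09, Pola1 at -1.75, Prim1 at -1.43 and Fen1 at -1.30. Pcna read 1192, 1273 and 1223 against 738, 639 and 662, lower throughout and under 2-fold (-0.86, adjusted p = 1.1e-05). Tyms read 46.7, 48.4 and 51.5 against 65.4, 68.8 and 50.8, with overlap (0.32, SE 0.17, adjusted p = 0.134). Rfc3 read 68.0, 61.0 and 67.4 against 71.2, 62.7 and 61.2, with overlap (-0.01, SE 0.15, adjusted p = 0.958).

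Mitosis members of WT microglia were called lower in 22 of 23 cases, with a median of -2.94. The kinase Plk1 read 198, 217 and 216 in quiescent and 11.8, 20.9 and 16.9 in LPS libraries. It was lower in every LPS library, by the largest change of the role (-3.63, SE 0.20, adjusted p = 1.2e-07). The checkpoint kinase Bub1 read 60.4, 82.0 and 71.9 against 6.61, 6.15 and 3.91, without overlap (-3.48, SE 0.27). Its LPS values stood on 3 to 9 reads with a mean of 5.55, so it passed the minimum of 10 through the quiescent libraries. Over alternative settings its change ran from -3.73 to -2.86. The ubiquitin-conjugating enzyme Ube2c read 171, 196 and 192 against 19.8, 12.3 and 18.2, without overlap (-3.42, SE 0.20). Ccnb2, the 1 member not called, read 78.2, 73.6 and 97.6 against 16.9, 1.23 and 13.02. Its groups were apart, but LPS library 2 held 1 read (-3.34, SE 0.64, adjusted p = 0.00116), and without WT LPS microglia 1 it passed (-3.90). At the small end were Cdk1 (-2.15) and Aurka, at 92.9, 92.6 and 93.8 against 24.97, 20.9 and 19.5 (-2.05).

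The other mitosis genes of WT microglia lay between these. Ccna2, Ccnb1, Top2a and Mki67 lay at -3.03, -2.63, -2.99 and -2.43, and the kinases Aurkb and Bub1b at -2.94 and -2.52. LPS values of Aurkb stood on 4 to 17 reads, with a mean of 9.27, under the minimum of 10. Birc5, Cdc20 and Kif23 lay at -3.01, -3.03 and -2.96, the kinetochore genes Cenpe and Cenpf at -2.57 and -2.95, and the kinesins Kif11 and Kif20a at -3.08 and -2.55. Spindle genes Tpx2, Nusap1 and Prc1 had -2.49, -2.71 and -2.23, and Foxm1 had -2.30.

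G1/S members of WT microglia held both the largest fall and the 1 called rise of the module, with a median of -0.94. Ccnd1 read 4984, 5716 and 5078 in quiescent and 405, 325 and 383 in LPS libraries. These groups were far apart, at -3.83 (SE 0.10, adjusted p = 5.0e-10), or 14.2-fold. Ccnd2 read 337, 278 and 291 against 717, 1040.0 and 1035, and was higher in every LPS library, with a rise of 1.60 (SE 0.15, adjusted p = 5.6e-06). Ccnd3 read 322, 343 and 338 against 178, 125.4 and 154, and fell (-1.14, SE 0.13, adjusted p = 3.3e-05). Ccne2 read 81.7, 86.3 and 101 against 8.08, 11.1 and 7.81, and fell (-3.19, SE 0.22). Its LPS values stood on 6 to 11 reads with a mean of 8.98, so it passed the minimum of 10 through the quiescent libraries. E2f8 and Ccne1 fell by 2.46 and 2.13, and the call of Ccne1 was lost without WT quiescent microglia 2. E2f1 and Cdk2 were lower by less than 2-fold (-0.63, adjusted p = 4.0e-04, and -0.69, adjusted p = 5.6e-04).

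The D cyclin kinases of WT microglia were not called. Cdk6 read 641, 642 and 645 in quiescent and 198, 536 and 531 in LPS libraries, so that its change of -0.74 (SE 0.31, adjusted p = 0.0634) rested on WT LPS microglia 1. Without that library it was -0.27. Cdk4 read 401, 463 and 475 against 421, 317 and 374, with overlap (-0.27, adjusted p = 0.0777). Per length, as RPKM, Ccnd1 stood at 212 in quiescent WT microglia, Ccnd2 at 6.12, Ccnd3 at 7.24, Cdk4 at 26.1 and Cdk6 at 8.74. After LPS these genes stood at 12.9, 16.2, 2.85, 18.7 and 4.91.

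Among the CDK inhibitors of WT microglia 1 was called. Cdkn2c read 122, 119.9 and 132 in quiescent and 18.4, 15.98 and 27.3 in LPS libraries. The LPS libraries were lower throughout (-2.58, SE 0.21, adjusted p = 2.0e-06). Cdkn1a read 4242, 4645 and 4038 against 7589, 7889 and 7356, higher throughout and under 2-fold (0.82, SE 0.08, adjusted p = 9.9e-06). Cdkn1b read 199, 147 and 159 against 268, 220.0 and 250.02, higher throughout and not called (0.55, SE 0.14, adjusted p = 0.00591). As RPKM, Cdkn1a stood at 231 in quiescent and 351 in LPS microglia, and at 52.2 in quiescent and 136 in activated WT astrocytes.

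**Figure D2:**
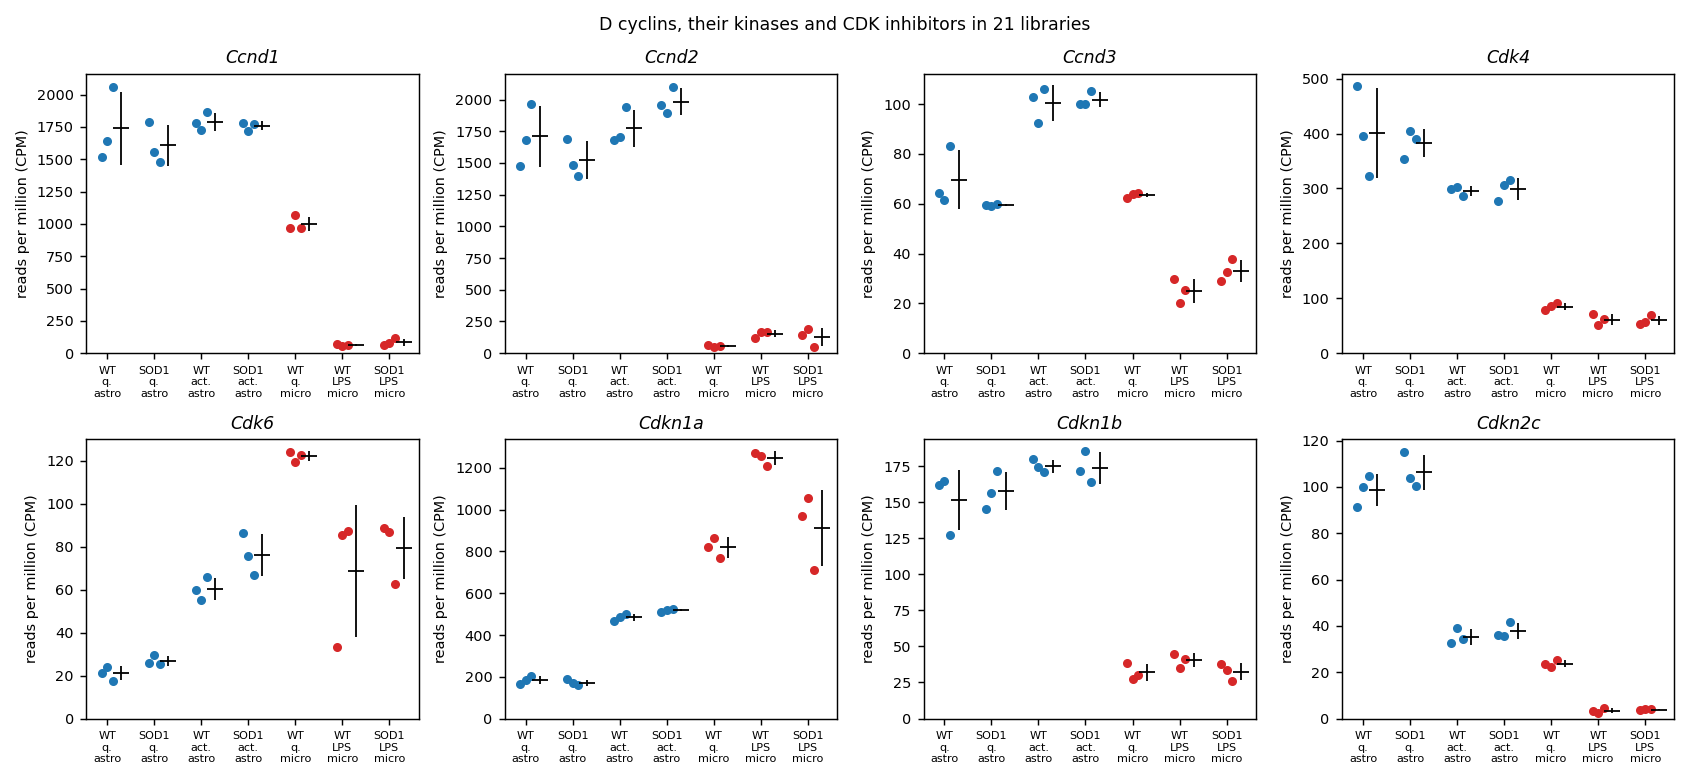
Levels of the D cyclins, their kinases and the CDK inhibitors in each library of the 7 groups. The log2 fold change of Ccnd1 was 0.08 in activated WT astrocytes and -3.83 in LPS WT microglia.

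Replication and mitosis members, set side by side, had near medians in WT astrocytes and distant ones in WT microglia. In astrocytes the 23 replication members had a median of -1.74 (activated libraries 1 to 3: -1.81, -1.69 and -1.73) and the 23 mitosis members -1.79 (-1.88, -1.72 and -1.78). In microglia the 22 replication members had -1.80 (LPS libraries 1 to 3: -1.94, -1.85 and -1.68) and the 23 mitosis members -2.94 (-2.67, -3.22 and -2.58). Summed levels of the replication members, as CPM (reads scaled by library depth), were 2763, 2842 and 3249 in quiescent and 844, 908 and 869 in activated astrocytes. In microglia these sums were 1354, 1346 and 1382 in quiescent and 440.1, 394 and 404 in LPS libraries. Mitosis members summed to 4191, 4294 and 4814 against 1107, 1242 and 1188 in astrocytes, and to 1071, 912 and 1132 against 137, 124.8 and 157 in microglia. The difference between the medians of the 2 classes was not tested.

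A test of the difference between the responses (limma, microglia minus astrocytes) called 16 of 59 members, 13 lower and 3 higher, where 8.8% of the 12394 genes tested were called lower and 6.48% higher. Its minimum was a mean of 10 over all 12 libraries, so Rfc4, not tested within microglia, was among the 59. With that minimum on the mean over the 6 libraries of each cell type, added after the data were seen, the same 16 of 58 were called. Beside them 9.84% of 10262 genes were called lower and 6.37% higher. Bub1 and Ccne2, with means of 5.55 and 8.98 in WT LPS microglia, still passed this minimum through the quiescent libraries. Without WT activated astrocytes 3 the count was 10, and with both WT libraries that stood apart left out it was 16, 14 of them the same. Cell type was bound up with the culture, the stimulus and the age of the mice in this test. Every mitosis member had a negative difference, with a median of -0.98, against -0.02 over all genes, and 7 were called. These were Kif23 (-1.95, SE 0.34), Ube2c (-1.84, SE 0.23), Bub1 (-1.81, SE 0.28), Plk1 (-1.63, SE 0.27), Birc5 (-1.496, SE 0.26), Cdc20 (-1.36, SE 0.19) and Ccna2 (-1.09, SE 0.16). Replication members had a median of -0.03 (-0.07 over the 22 tested in both cell types), with Rrm2 (-1.18, SE 0.16) and Mcm5 (-1.06, SE 0.19) lower, and Cdt1 (1.63, SE 0.23) and Tyms (1.05, SE 0.20) higher. G1/S members called were Ccnd1 (-3.90, SE 0.18), Cdk6 (-2.28, SE 0.39), Ccnd3 (-1.70, SE 0.20) and Ccne2 (-1.40, SE 0.28), lower, and Ccnd2 (1.52, SE 0.21), higher. E2f1 differed by 0.99 (adjusted p = 7.3e-05), just under 2-fold. Of the inhibitors, Cdkn1a (-0.59, adjusted p = 0.00389), Cdkn2c (-1.12, adjusted p = 0.00167) and Cdkn1b (0.31, adjusted p = 0.169) were not called.

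Calls in this test were less steady than the calls within a cell type. Ccne2 kept its call in 5 of 21 alternative settings, Tyms in 10 of 22, Kif23 in 13 of 21, Mcm5 in 14 of 22, Birc5 in 15 of 21, Cdk6 in 17 of 22, Plk1 in 20 of 22 and Ccna2 in 21 of 22. Of the libraries that stood apart, leaving out WT LPS microglia 1 ended the calls of Tyms and Ccne2 and left Cdk6 called at -1.81. Leaving out WT quiescent astrocytes 3 ended those of Tyms, Ccne2, Cdk6 and Birc5. Ccnd1, Ccnd2, Ccnd3, Cdt1, Rrm2, Cdc20 and Ube2c kept theirs in all 22. Bub1, with 3 to 9 reads in the WT LPS libraries, kept its call in all 21 of its own.

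LPS microglia of SOD1G93A mice, set against quiescent WT microglia, differ in 2 things at once, and share those controls with the WT comparison. There 42 of 58 members tested were called (limma), all lower, where 7.51% of 10921 genes were called lower and 8.22% higher. Without SOD1G93A LPS microglia 3 the count was 46. Mitosis members were called lower in 23 of 23 cases (median -2.45), licensing in 10 of 13 (-1.82), synthesis in 5 of 9 (-1.73), G1/S in 3 of 10 (-0.70) and inhibitors in 1 of 3. Rfc4, with a mean of 9.06, was under the minimum. Ccnd1 read 5289.6, 6075 and 5388 in quiescent WT and 409.9, 500.4 and 719 in SOD1G93A LPS libraries, all lower (-3.40, SE 0.18). Plk1 read 211, 230.3 and 229 against 22.5, 21.5 and 20.4, all lower (-3.32, SE 0.13), and Cdkn2c lay at -2.35. Ccnd2 read 358, 295 and 309 against 976, 1221 and 321, with SOD1G93A LPS microglia 3 inside the range of the controls (1.18, SE 0.41, adjusted p = 0.0376). Without that library Ccnd2 was called, at 1.77 (SE 0.10, adjusted p = 3.4e-09). Not called were Ccnd3 (-0.73), Cdk4 (-0.28), Cdk6 (-0.42), Cdkn1a (0.36), Cdkn1b (0.24) and Cdt1 (-0.19). Microglia markers summed to 14181, 14719 and 13961 CPM in the controls and 5395, 5325 and 7136 in SOD1G93A LPS libraries, led by Csf1r and none at 0, with 9 of 14 called lower. Oligodendrocyte lineage markers, led by Cspg4 with Mog at 0 in both groups, summed to 1349, 1375 and 1389 against 185, 191 and 280.0, with 2 of 6 lower, 3 of 6 positive and a median of -0.07, and Cspg4 alone made 1229 CPM (mean) in the controls and 143.6 after LPS. Of 3 endothelial markers 1 was called lower and 1 higher, and 2 of 9 astrocyte and 1 of 6 pericyte and fibroblast markers were called higher. The part of these markers was not tested.

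Quiescent astrocytes of the 2 genotypes, which share the WT libraries above, had 0 of 59 members called by limma, DESeq2 or edgeR, where limma called 0% of 12271 genes, edgeR 0 genes and DESeq2 7. At unadjusted p under 0.05 there were 4 members, against 8.7% of genes: Mcm7, Cdc20, Bub1b and Mcm5. Mcm7 read 977, 889.8 and 1201 in WT and 850.2, 738 and 679 in SOD1G93A libraries, lower throughout (-0.43, SE 0.13, adjusted p = 0.433). Cdc20 lay at -0.26, Bub1b at -0.41 and Mcm5 at -0.32, and without WT quiescent astrocytes 3 the last 2 lay at -0.25 and -0.18. Medians were -0.12 over members and 0.00 over all genes. Ccnd1, Ccnd2 and Ccnd3 lay at -0.13, -0.18 and -0.24, Cdk4 and Cdk6 at -0.07 and 0.33, and Cdkn1a, Cdkn1b and Cdkn2c at -0.13, 0.04 and 0.09. Microglia markers summed to 199.9, 288 and 359 CPM in WT and 456, 477 and 324 in SOD1G93A libraries, led by Csf1r and none at 0, with 13 of 13 positive and 0 called. Pericyte and fibroblast markers, led by Tagln and then Acta2 with none at 0, summed to 128, 154 and 164 against 92.2, 91.3 and 78.97, with 4 of 4 negative and 0 called. Oligodendrocyte lineage markers, led by Olig1 with Mog at 0 in WT, summed to 3152, 3063 and 2973 against 3565, 3310.0 and 3345, with 0 of 9 called. Olig1 alone made 1799 CPM (mean) of that sum in WT and 2122 in SOD1G93A libraries, while 5 of 9 were negative, with a median of -0.12, and all 4 at unadjusted p under 0.05 were lower, Gpr17 (-1.72, adjusted p = 0.00333) the most. Endothelial markers, led by Flt1, with Cldn5 at 0 in both groups, Tek in WT and Cdh5 in SOD1G93A, summed to 8.93, 9.90 and 13.4 against 6.61, 7.45 and 6.99, with 0 of 1 called. Negative were 9 of 11 astrocyte and 2 of 5 neuron markers, with 0 called in each list. The part of these markers was not tested. With both libraries that stood apart left out the count stayed at 0.

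Activated astrocytes of the 2 genotypes, which share the WT activated libraries above, also had 0 of 59 members called by each of the 3 tools, where 0.645% of 12098 genes were called by limma. Gins1, with a mean of 13.1, was nearest above the minimum. All 3 SOD1G93A libraries, at 2135439 to 3929272 reads, were shallower than the WT ones, at 5047999 to 6768201, so genotype and depth cannot be told apart there. At unadjusted p under 0.05 there were 12 members, 9 lower and 3 higher, against 20.4% of genes. Cdk6 read 251, 230.2 and 279 in WT and 372, 327 and 291 in SOD1G93A libraries, higher throughout, and had the lowest adjusted p (0.38, SE 0.10, adjusted p = 0.0202). Ccnd2 (0.20) and Cdkn1a (0.14) were the other 2 higher. Those lower were the replication members Mcm2 (-0.22), Mcm3 (-0.36), Mcm4 (-0.26), Mcm5 (-0.31), Mcm10 (-0.42), Cdc45 (-0.47) and Rrm1 (-0.21), with E2f8 (-0.44) and Top2a (-0.21). Ccnd1, Ccnd3 and Cdk4 lay at 0.02, 0.06 and 0.06, and Cdkn1b and Cdkn2c at 0.03 and 0.14. The median was -0.19 over replication and -0.06 over mitosis members. Endothelial markers, led by Flt1 with Cldn5 and Cdh5 at 0, summed to 137, 148 and 153 CPM in WT and 118, 117 and 111 in SOD1G93A libraries, with 0 of 1 called. Pericyte and fibroblast markers, led by Tagln with none at 0, summed to 109.9, 125.0 and 97.9 against 79.0, 83.2 and 88.0, with 0 of 6 called. Astrocyte markers, led by Slc1a3 with none at 0, summed to 4581, 4601 and 4598 against 4517, 4468 and 4558, with 0 of 10 called, but at unadjusted p under 0.05 there were 2 lower and 4 higher. Of the neuron markers 5 of 6 were negative, with a median of -0.54, 4 at unadjusted p under 0.05, all lower without overlap, and 0 called. Of the oligodendrocyte lineage markers 0 of 9 were called, with a median of 0.03, and among those at unadjusted p under 0.05 Pdgfra (-0.57, adjusted p = 2.2e-04) and Sox10 (-0.90) were lower and Mbp (0.71) was higher. Of the microglia markers 11 of 13 were negative and 0 called. The part of these markers was not tested. A test of the difference between the genotype effects in activated and quiescent astrocytes called 0 members by each tool. Over all genes limma called 0% of 12280, edgeR 4 genes and DESeq2 22. In that test 3 members (Ccnd2, Bub1b and Kif20a) had unadjusted p under 0.05, against 8.47% of genes.

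LPS microglia of the 2 genotypes, which share the WT LPS libraries above, had 0 of 56 members called by limma, DESeq2 or edgeR, and over all genes limma called 0% of 10679, edgeR 0 genes and DESeq2 3. Means of Rfc4 (7.38), Bub1 (7.53) and Cdc6 (8.48) were under the minimum, and Gins1 (10.4) was nearest above it. At unadjusted p under 0.05 there were 5 members, against 8.71% of genes. Of the 56 members 39 were positive, with a median of 0.22 against 0.01 over all genes, and the medians were 0.22 over mitosis and 0.02 over replication members. Mcm5 read 63.4, 61.0 and 72.9 in WT and 80.7, 104.95 and 161 in SOD1G93A libraries, higher throughout (0.75, SE 0.24, adjusted p = 0.571). Uhrf1 (0.64) and Ccnd3 (0.42) were higher throughout too, and Top2a (0.59) was positive with overlap. Cdkn1a read 7536, 7826 and 7357 against 6027, 6467 and 4233, lower throughout (-0.46, SE 0.16, adjusted p = 0.571), with its lowest value in SOD1G93A LPS microglia 3. Without that library Mcm5 lay at 0.48, Uhrf1 at 0.30, Cdkn1a at -0.28 and Ccnd2 at 0.16, and Cdk6 lay at -0.15 without WT LPS microglia 1. Ccnd1, Ccnd2, Cdk4 and Cdk6 lay at 0.43, -0.42, -0.01 and 0.32, and Cdkn1b and Cdkn2c at -0.32 and 0.22. Microglia markers summed to 5267, 4948 and 4981 CPM in WT and 5395, 5325 and 7136 in SOD1G93A libraries, led by Itgam and Csf1r and none at 0, with 13 of 14 positive and 0 called. Oligodendrocyte lineage markers, led by Cspg4 with Mog at 0 in SOD1G93A, summed to 144, 143 and 145 against 185, 191 and 280.0, with 0 of 6 called. Cspg4 alone made 65.6 CPM (mean) of that sum in WT and 143.6 in SOD1G93A libraries, while 3 of 6 were negative and the median was -0.04. Astrocyte, endothelial, pericyte and fibroblast, and neuron markers had 0 called. The part of these markers was not tested. With both libraries that stood apart left out the count stayed at 0.

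**Figure D3:**
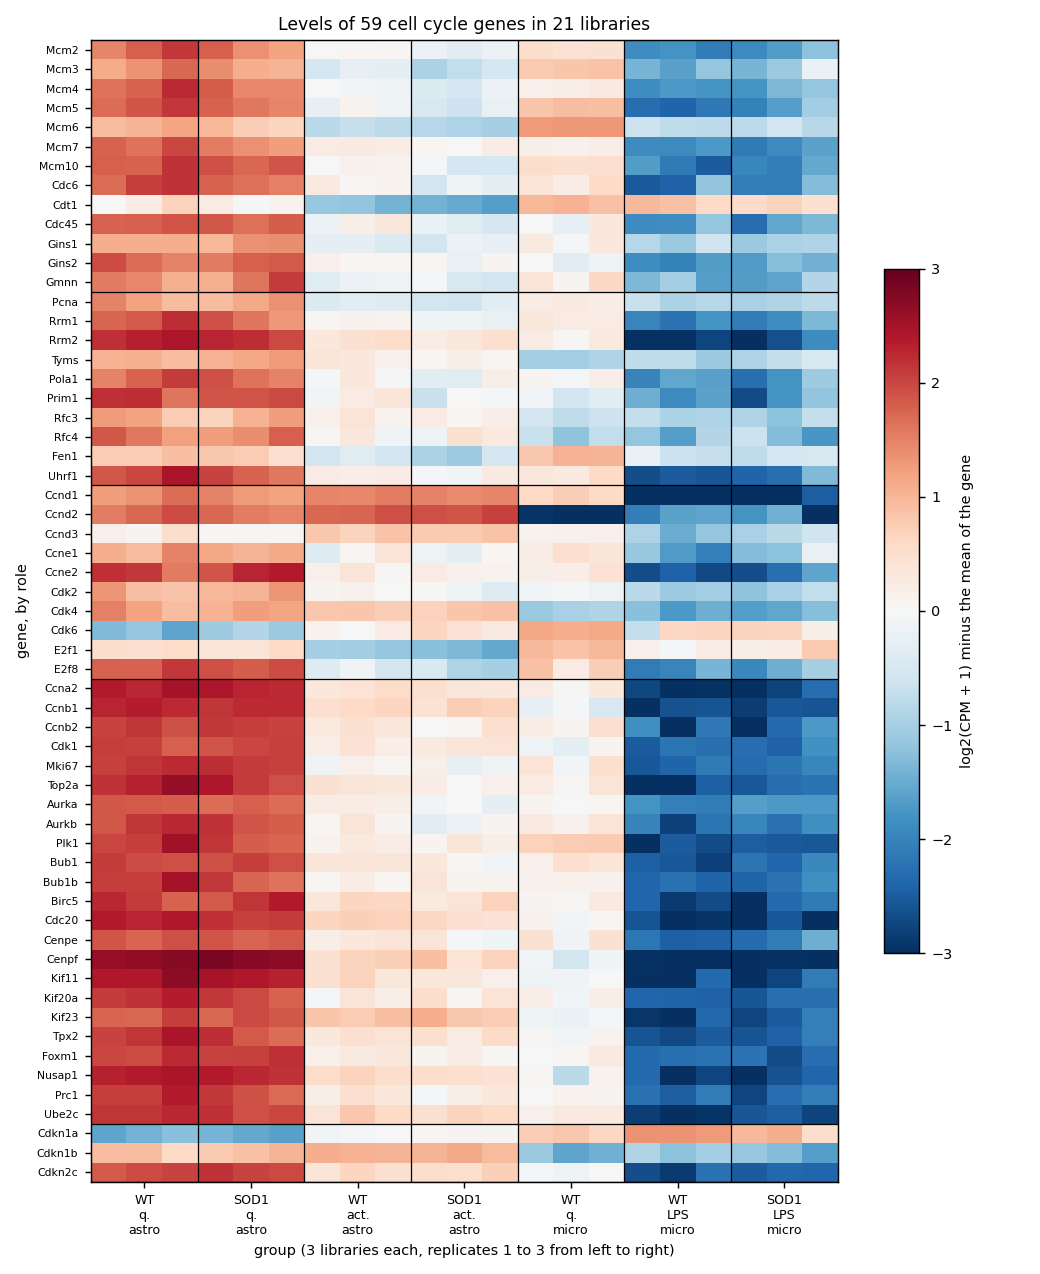
Level of each member in each of the 21 libraries, by role. Summed CPM of the mitosis members were 4191, 4294 and 4814 in quiescent and 1107, 1242 and 1188 in activated WT astrocytes.

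Lists outside the module were read by counts of called genes beside it. Over all genes 5.54% were called lower and 6% higher in astrocytes, and 10.6% and 10.2% in microglia. Of 36 other replication genes 23 fell in activated WT astrocytes (median -1.37) and 14 of 34 in LPS WT microglia (-0.71). The thymidine kinase Tk1 (-2.24) and the polymerase Pole (-1.96) were among those that fell in astrocytes, and Clspn (-3.45), Pole (-3.24) and Dut (-3.22) led in microglia. Of 41 other mitosis genes 39 fell in astrocytes (-1.72), with Cdc25c (-2.17), Spag5 (-2.15) and Ect2 (-2.05) first. In microglia 35 of 40 fell and 2 rose (-2.51), with Cdca3 (-3.84), Kif18b (-3.64) and Kif2c (-3.17) first. The 2 that rose were the securin Pttg1, at 44.1, 37.9 and 50.0 against 303, 218 and 185 (2.37), and the CDK subunit Cks2, at 63.9, 65.2 and 55.3 against 192, 139 and 181 (1.45).

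Regulators of the cycle outside the module were called in part, beside 5.54% lower and 6% higher over all genes in astrocytes and 10.6% and 10.2% in microglia. Of 18 other E2F, RB and MuvB genes 5 fell in astrocytes, led by E2f7 (-2.20), Mybl2 (-1.77) and Rbl1 (-1.62). In microglia 5 fell and 1 rose, and E2f2 read 296, 279.8 and 281 against 12.5, 13.5 and 20.8 (-4.14), ahead of Mybl2 (-3.26) and E2f7 (-3.06). Of 5 other CDK inhibitors 2 rose in astrocytes, 3 were negative and not called, and the median was -0.67. Cdkn2b, the p15 gene, read 163, 201 and 175 in quiescent and 1960.2, 1886 and 1959 in activated libraries, all higher (3.43, SE 0.09). Its neighbour Cdkn2a read 76.9, 78.7 and 83.2 against 389, 378 and 409, all higher (2.28, SE 0.10). The 3 negative ones, lower in all activated libraries, were Cdkn1c (-1.51, adjusted p = 0.00173), Cdkn3 (-1.48, adjusted p = 0.00202) and Cdkn2d (-0.67, adjusted p = 0.00519). In microglia 1 of 4 tested was called: Cdkn2b rose by 1.52 (SE 0.24), from 33.0, 56.8 and 28.8 to 109, 95.9 and 129, while Cdkn2d (-0.96), Cdkn2a (-0.74) and Cdkn1c (0.02) were not called and Cdkn3 was under the minimum.

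Targets of p53 were called higher in 3 of 13 cases in astrocytes, with all 13 positive: Bbc3 (1.82), Plk2 (1.17) and Phlda3 (1.07). In microglia 3 of 13 were called, beside 10.6% lower and 10.2% higher over all genes: Mdm2 (1.10) and Sesn2 (1.06) rose and Zmat3 (-1.51) fell. Of the growth factor receptors and Myc genes 1 of 9 was called in astrocytes, Mycl (-1.65), beside 5.54% lower and 6% higher over all genes. In microglia 4 of 5 fell, with Tgfbr1 at 5604.5, 5792 and 5609.8 against 783, 1233 and 1145 (-2.45), then Tgfbr2 (-2.19), Myc (-1.58) and Csf1r (-1.55).

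Some lists of cell type markers moved as well, in both directions, and their part in these results was not tested. Their counts stand beside 5.54% lower and 6% higher over all genes in astrocytes, and 10.6% and 10.2% in microglia. Oligodendrocyte lineage markers, 12 genes with Olig1 the most abundant, summed to 3152, 3063 and 2973 CPM in quiescent and 1129, 1164 and 1103 in activated WT astrocytes, with 4 of 9 tested called lower and Mog at 0 in the quiescent group. In microglia, where Cspg4 led, they summed to 1349, 1375 and 1389 against 144, 143 and 145, with 2 of 6 lower, 4 of 6 positive, a median of 0.20 and Mog at 0 in the quiescent group. Cspg4 alone made 1229 CPM (mean) of that sum in quiescent and 65.6 in LPS libraries. Neuron markers, 9 genes led by Map2, summed to 956, 985 and 758 against 402, 451 and 452 in astrocytes, with 1 lower and 2 higher of 6, 5 of 6 positive, and none at 0. Map2 alone made 872 CPM (mean) of that sum in quiescent and 384 in activated libraries. In microglia 0 of 1 was called. Endothelial markers, 6 genes led by Flt1, summed to 8.93, 9.90 and 13.4 against 137, 148 and 153 in astrocytes, with 1 of 1 higher, Cldn5 at 0 in both groups, Tek at 0 in the quiescent and Cdh5 in the activated group. In microglia, with Flt1 first in quiescent and Kdr in LPS libraries, they summed to 67.0, 75.3 and 75.1 against 45.6, 55.9 and 50.7, with Cldn5 and Tek at 0 in both. There 3 of 3 were called, Flt1 (-3.47) lower and Pecam1 (4.17) and Kdr (1.01) higher. Microglia markers, 14 genes led by Csf1r, summed to 199.9, 288 and 359 against 245, 412 and 220.4 in astrocytes, with 0 of 13 called, a median of 0.01 and none at 0. In microglia themselves they summed to 14181, 14719 and 13961 against 5267, 4948 and 4981, with 9 of 14 lower, Itgam the most abundant after LPS, and none at 0. Astrocyte markers, 12 genes led by Slc1a3, summed to 5125, 5524 and 6353 against 4581, 4601 and 4598 in astrocytes, with 3 of 11 lower, 10 of 11 negative, a median of -0.81 and none at 0. In microglia 2 of 9 were called higher, up to 2.72, with Gjb6 at 0 in the quiescent and S100b in the LPS group. The most abundant there was Gfap, at 56.7 CPM (mean) in quiescent and 48.1 in LPS libraries. Pericyte and fibroblast markers, 8 genes led by Tagln, summed to 128, 154 and 164 against 109.9, 125.0 and 97.9 in astrocytes, with 2 lower and 2 higher of 6, and none at 0. In microglia 1 of 6 was called higher (4.98), Acta2 was the most abundant, and Rgs5 was at 0 in the quiescent group.

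Promoters were searched over the 250 bases upstream of the listed start, on both strands, for E2F motifs (TTTGGCGC, TTTCGCGC or TTTCCCGC), the CHR motif (TTTGAA) and CCAAT. A match is a description and not a site or a cause, and no match says only that these letters are not in this window. Mcm4, Gins1, Gins2, Gmnn, Ccnd1, Ccnd2, Ccne2, Ccna2, Aurkb, Kif20a, Tpx2 and Foxm1 were not matched by symbol, which left 47 members. E2F motifs were in 4 of 9 licensing members (Mcm5, Mcm6, Mcm7 and Cdc6), 3 of 10 synthesis members (Pola1, Rfc3 and Uhrf1), 1 of 7 G1/S members (Cdk2), 1 of 18 mitosis members (Cdk1) and 0 of 3 inhibitors, against 1.78% of 27025 genes. The CHR motif was in 8 of 18 mitosis members (Ccnb2, Cdk1, Mki67, Top2a, Cdc20, Kif11, Prc1 and Ube2c), 2 of 9 licensing members (Mcm2 and Cdc45), 1 of 10 synthesis members (Fen1), 1 of 7 G1/S members (E2f8) and 0 of 3 inhibitors, against 18.3%. CCAAT was in 16 of 18 mitosis, 7 of 9 licensing, 7 of 10 synthesis, 3 of 7 G1/S and 1 of 3 inhibitor promoters, against 37.5%. Over 300 bases, up to 50 past the start, a window added after the data were seen, the CHR motif was in 13 of 18 mitosis members, against 20.2% of genes, and CCAAT in 2 of 3 inhibitor promoters, against 41.1%.

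**Figure D4:**
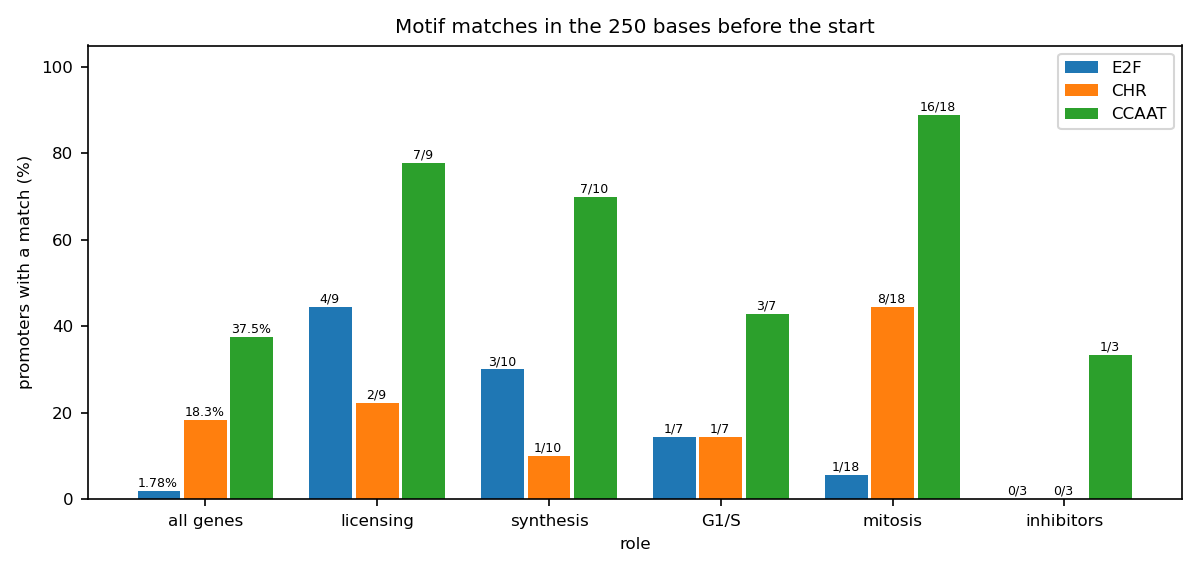
Share of 250-base promoters with each motif by role, beside all genes. The CHR motif was in 44.4% of the 18 mitosis members matched by symbol and in 18.3% of all genes.

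The promoters of 4 named members are shown, from RefSeq on build GRCm38.p6, each on the plus strand. Mcm5, Rrm2 and Plk1 were picked for the largest absolute change of their roles in LPS WT microglia, and Cdkn1a by name. Ccnd1, with the largest change of the G1/S role there, was not matched by symbol. Capitals mark the matches: in Mcm5 2 overlapping E2F motifs 153 and 149 bases upstream and CCAAT at 77 and 22, in Rrm2 CCAAT at 50, and in Plk1 CCAAT at 14. The 300-base window of Plk1, not shown, also held the CHR motif. Cdkn1a had 2 listed starts, and the window of the first, shown here, held no match. They lie at chr8:75109259-75109508 (Mcm5), chr12:24708004-24708253 (Rrm2), chr7:122159185-122159434 (Plk1) and chr17:29090729-29090978 (Cdkn1a).
Mcm5: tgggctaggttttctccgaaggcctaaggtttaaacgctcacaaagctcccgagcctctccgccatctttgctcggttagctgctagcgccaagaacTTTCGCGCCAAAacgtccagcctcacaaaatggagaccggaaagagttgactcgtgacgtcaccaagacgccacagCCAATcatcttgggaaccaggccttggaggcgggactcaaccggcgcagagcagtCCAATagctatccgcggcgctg
Rrm2: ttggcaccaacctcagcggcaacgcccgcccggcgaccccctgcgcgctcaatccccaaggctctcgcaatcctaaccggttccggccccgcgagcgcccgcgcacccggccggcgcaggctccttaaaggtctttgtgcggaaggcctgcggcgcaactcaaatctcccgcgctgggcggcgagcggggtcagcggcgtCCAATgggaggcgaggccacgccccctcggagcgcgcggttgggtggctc
Plk1: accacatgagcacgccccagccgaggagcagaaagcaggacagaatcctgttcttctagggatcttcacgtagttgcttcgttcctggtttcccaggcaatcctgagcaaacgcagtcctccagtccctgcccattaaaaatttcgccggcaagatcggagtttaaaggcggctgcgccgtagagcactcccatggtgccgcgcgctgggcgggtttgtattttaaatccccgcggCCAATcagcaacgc
Cdkn1a: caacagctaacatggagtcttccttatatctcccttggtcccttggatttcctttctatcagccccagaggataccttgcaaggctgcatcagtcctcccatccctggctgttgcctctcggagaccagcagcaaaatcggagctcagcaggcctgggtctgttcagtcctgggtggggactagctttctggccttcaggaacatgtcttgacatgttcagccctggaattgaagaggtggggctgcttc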

How the data were processed

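RNA of 21 cultured libraries, 7 groups of 3, was sequenced. SOD1G93A quiescent microglia (3 libraries) were not analysed here. The authors used STAR 2.7.3a on mm10, then RSEM, and deposited DESeq2-normalized counts, a signal scale, in 6 tables. The fold changes and p values in these tables were not used. Dividing each column by its step recovered whole reads for 100% of values, at a tolerance of 0.01. Genes whose normalized counts averaged 10 or more in a table were tested on log2 of the count plus 1 with limma 3.58.1 (trend, R 4.3.3), with Benjamini-Hochberg adjustment over all genes tested. Responses were compared as a contrast of contrasts over 12 libraries, each on the scale of its own table. DESeq2 1.42.0 and edgeR 4.0.16 on the recovered reads called 51 and 51 members in WT astrocytes and 47 and 47 in WT microglia. Tables and figures were made with Python 3.11.15, pandas 2.3.3 and matplotlib 3.10.9. Median depth per group was 3637657 to 7251063 reads. With 3 libraries per group, p values measure only the spread between samples. Levels per length used exon lengths from GENCODE.

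Members and lists were chosen with earlier results of these data known. Genes named singly are the D cyclins, Cdk4, Cdk6 and the inhibitors, the 4 largest and 2 smallest changes of each role, those against the median of their role, and those called between genotypes or cell types, so they were named after their values were seen. The remaining members are given to account for the whole module, some with library values. Other pseudocounts, filters, scalings, models and left-out libraries were tried. Of the genes listed outside the module, 2 are not reported here.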

Additional observations from a re-analysis of the deposited data

Results flagged for a closer look

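A test of the difference between the responses of the 2 cell types, LPS in WT microglia minus activation in WT astrocytes, flagged 16 members, given here as log2 differences. Among replication members these were Mcm5 (-1.063), Cdt1 (1.629), Rrm2 (-1.179) and Tyms (1.053). Among G1/S members they were Ccnd1 (-3.903), Ccnd2 (1.518), Ccnd3 (-1.703), Ccne2 (-1.399) and Cdk6 (-2.281). In the mitosis role they were Ccna2 (-1.095), Plk1 (-1.627), Bub1 (-1.81), Birc5 (-1.496), Cdc20 (-1.36), Kif23 (-1.949) and Ube2c (-1.842). Least steady were the calls of Ccne2, kept in 5 of 21 alternative settings, Tyms, in 10 of 22, and Kif23, in 13 of 21.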

How the results depend on the processing

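With single libraries left out, counts of called members ran from 48 to 51 in WT astrocytes, 42 to 47 in WT microglia, 32 to 46 in SOD1G93A LPS against WT quiescent microglia and 10 to 19 in the difference between the responses, and stayed at 0 in the 4 genotype tests. The lowest of the difference test, 10, came without WT activated astrocytes 3. At adjusted p under 0.05 and any fold, 31 were called in the difference test and 1 in activated astrocytes between genotypes. Only genes with at least 10 in every library gave 35 in WT microglia, where members with a library under 10 were left untested. Limma without trend gave 31 in SOD1G93A LPS against WT quiescent microglia. With a replicate block (libraries paired by number) 51, 46, 41 and 13 were called, and 0 between genotypes, but the labels do not say whether equal numbers share a preparation.

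Over left-out libraries the replication median ran from -1.677 (without WT activated astrocytes 1) to -1.805 (without WT quiescent astrocytes 1) in astrocytes and -1.775 to -1.87 in microglia, and the mitosis median from -1.724 to -1.858 and -2.597 to -2.997. A pseudocount of 5 gave a mitosis median of -2.495 in microglia, and at least 10 in every library, which left fewer mitosis members, -2.556.

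Within WT astrocytes and WT microglia the sign turned for 4 named genes near 0. In astrocytes Ccnd2 had -0.03748 with quantile normalization and -0.02927 without WT quiescent astrocytes 1 (0.2116 without 3), and Ccnd1 -0.08162 with quantile normalization, -0.0002742 with depth class as a term and -0.03097 without WT quiescent astrocytes 1 (0.2249 without 3). In microglia Cdt1 had -0.06355 with quantile normalization and -0.001394 without WT LPS microglia 1 (0.17 without 3). Rfc3 had 0.05096 with quantile normalization, 0.04719 with depth class, 0.01408 and 0.03116 without WT LPS microglia 2 or 3, and 0.01745 and 0.01071 without WT quiescent microglia 1 or 3 (-0.07671 without WT LPS microglia 1). Between genotypes in LPS microglia, with none called, Ccnd2 turned from -0.42 to 0.16 without SOD1G93A LPS microglia 3, and Cdk6 from 0.32 to -0.15 without WT LPS microglia 1. The cause was not tested.

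Depth class equalled genotype in activated astrocytes and could not be fitted there. Leaving out both libraries that stood apart, the minimum in each cell type, and a 300-base promoter window (the same bases and 50 past the start), were added after the data were seen. That window held E2F motifs in 6 of 9 licensing members (2.12%).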
